A study of Mus musculus with 6 samples.

Results

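Genes of sympathetic and nerve growth signalling, 7 in number, were followed through the open chromatin of bone marrow stromal cells from mice given doxorubicin or saline. The 7 are Adrb1, Adrb3 and Adra1a, which encode receptors for noradrenaline and adrenaline, Bdnf, Ntf3 and Gdnf, which encode secreted factors that keep neurons alive, and Ngfr, which encodes the p75 receptor that binds all neurotrophins. They stand among 21627 protein-coding genes on chromosomes 1 to 19 and X. A peak was counted for a gene if its summit lay in the gene or within 100 kb of it and no other protein-coding gene was nearer. By that rule the genes held 37, 38 and 44 of the deposited peaks in DOX replicates 1, 2 and 3, and 33, 35 and 25 in PBS replicates 1, 2 and 3. Nearness to a gene does not show that a region acts on it.

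The cells were sorted from the bone marrow of Lepr-Cre;LSL-tdTomato+/- mice, in which Cre made under the leptin receptor gene switches on a red reporter. All mice were female, were 8 to 10 weeks old at treatment and carried this genotype in both groups. The DOX group had received 4 intravenous injections of 5 mg/kg doxorubicin, an anthracycline that poisons topoisomerase II, with 1 week between injections, and the PBS group 4 injections of buffered saline. Marrow was taken 8 weeks later, and each group holds 3 ATAC-seq libraries that the titles name as biological replicates. The labels do not say how many mice went into a library, and the p-values cover the spread between libraries, which may be technical. ATAC-seq uses the transposase Tn5 to tag accessible DNA, and a peak is a place where tags pile up.

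Sympathetic nerves run along the arteries of the marrow and release noradrenaline. Beta receptors couple to the G protein Gs and raise cyclic AMP, and alpha-1 receptors couple to Gq and raise calcium. In mice, noradrenaline acting on beta-3 receptors of the marrow stroma lowers Cxcl12, a chemokine that retains haematopoietic stem cells. In bulk sorted cells, fewer cells of a type and a weaker signal per cell cannot be told apart. Neurotrophins and GDNF, made by the tissue that a nerve supplies, act through receptor tyrosine kinases on the axon.

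The libraries differed in depth. The background pileup, the level of fragments per position that the fold enrichments imply, was 1.67 to 2.22 in DOX and 0.558 to 1.27 in PBS, with the lowest value in PBS replicate 3. DOX libraries listed 91026 to 100642 peaks and PBS libraries 65462 to 89264. Comparisons therefore kept only the strongest 65462 peaks per library, as many as the shortest list holds, unless the deposited lists are named. The sort could be checked against markers. A kept peak lay within 1 kb of a gene end, which is called an open end here, for 13 of 13 stromal markers in each DOX library and 12 to 13 in PBS, for 5 of 16 blood cell markers in every library, and for 3 to 5 of 12 endothelial markers in DOX and 3 to 4 in PBS. Schwann cells, which also make Ngfr, had 8 of 14 markers open at an end in each DOX library and 6 to 8 in PBS. Their peaks summed to 37 to 39 in DOX and 36 to 41 in PBS, and of the defining markers Cdh19, Foxd3 and Gjb1 had neither an open end nor an assigned peak in any library. Neuron markers had 5 to 6 of 15 open in DOX and 5 to 7 in PBS. All these counts are to be read against the share over all genes. Of 21627 genes, 12915 to 12982 had an open end in DOX libraries and 12681 to 12828 in PBS. The part of such cells in the values below was not tested.

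The start sites show how unlike these genes were. RefSeq gives promoters (250 bases before to 50 after a start, build GRCm38.p6) for 5 of the 7 genes, 13 promoters in all, and none for Adrb3 and Adra1a in the table used. The Ngfr promoter lay under a peak in all 6 libraries. The Adrb1 promoter lay under a weak peak in the deposited lists of the 3 DOX libraries and under none in PBS. The second Gdnf promoter by coordinate was reached by peaks in the deposited lists of 3 DOX libraries and 1 PBS library. In the kept lists only PBS replicate 2 had a peak there. The first Gdnf promoter met a peak in the deposited list of PBS replicate 1 only. None of the 7 Bdnf promoters met a peak in any list. A promoter of each kind is shown 5′ to 3′, with capitals for matches on either strand to the GC box GGGCGG, bound by Sp1 and its relatives, or to CCAAT. They lie at chr11:95587649-95587948 (minus strand) for Ngfr, chr19:56721867-56722166 (plus) for Adrb1, chr15:7813477-7813776 (plus) for the second Gdnf start, and chr2:109674450-109674749 (plus) for the first Bdnf start.
Ngfr: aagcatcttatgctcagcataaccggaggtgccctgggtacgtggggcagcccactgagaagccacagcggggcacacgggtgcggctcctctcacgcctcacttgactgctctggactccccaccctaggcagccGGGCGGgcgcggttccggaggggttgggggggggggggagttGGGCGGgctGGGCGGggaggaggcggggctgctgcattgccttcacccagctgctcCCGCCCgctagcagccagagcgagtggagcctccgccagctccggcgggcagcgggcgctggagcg
Adrb1: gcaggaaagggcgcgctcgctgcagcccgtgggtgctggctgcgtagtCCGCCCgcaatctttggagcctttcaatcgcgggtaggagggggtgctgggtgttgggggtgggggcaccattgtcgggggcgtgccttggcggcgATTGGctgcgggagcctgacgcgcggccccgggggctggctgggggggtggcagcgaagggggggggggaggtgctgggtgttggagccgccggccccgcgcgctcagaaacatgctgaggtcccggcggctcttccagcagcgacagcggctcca
Gdnf: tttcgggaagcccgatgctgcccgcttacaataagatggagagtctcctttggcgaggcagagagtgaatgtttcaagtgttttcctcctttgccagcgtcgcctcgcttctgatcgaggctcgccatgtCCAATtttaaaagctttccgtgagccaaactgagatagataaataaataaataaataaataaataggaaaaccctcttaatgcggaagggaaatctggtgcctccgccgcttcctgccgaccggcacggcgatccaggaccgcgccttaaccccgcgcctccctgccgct
Bdnf: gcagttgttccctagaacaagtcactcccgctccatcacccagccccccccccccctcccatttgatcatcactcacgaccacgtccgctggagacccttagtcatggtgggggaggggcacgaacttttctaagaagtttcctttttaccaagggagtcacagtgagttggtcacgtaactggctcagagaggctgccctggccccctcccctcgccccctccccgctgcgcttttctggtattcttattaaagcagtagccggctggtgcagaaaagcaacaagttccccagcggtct

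The Ngfr promoter held 4 GC boxes and 23 CpG dinucleotides, the Adrb1 promoter 1 GC box, 1 CCAAT match and 28 CpG, the second Gdnf promoter 1 CCAAT match and 22 CpG, and the first Bdnf promoter neither motif and 11 CpG. GC boxes occurred in 46.7% of 21044 RefSeq promoters and CCAAT in 38.5%. Motifs of 4 other kinds were searched in the 13 promoters. The cyclic AMP response element TGACGTCA, present in 2.26% of all promoters, and the palindromic EBF motif, present in 0.965%, had no match. The AP-1 motif TGANTCA (7.04% of all promoters) matched once, in the second Bdnf promoter, and the E-box CACGTG (7.91%) once, in the second Ntf3 promoter by coordinate. CpG-rich promoters were mostly open in these cells: of the 7639 with at least 20 CpG, 89.9% lay under a kept peak in all 6 libraries and 7.30% in none. Adrb1, with 28 CpG, was among those in none. Of all promoters 53.7% were open in every library, against 1 of the 13 here, although the 7 Bdnf promoters share a gene.

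**Figure D1:**
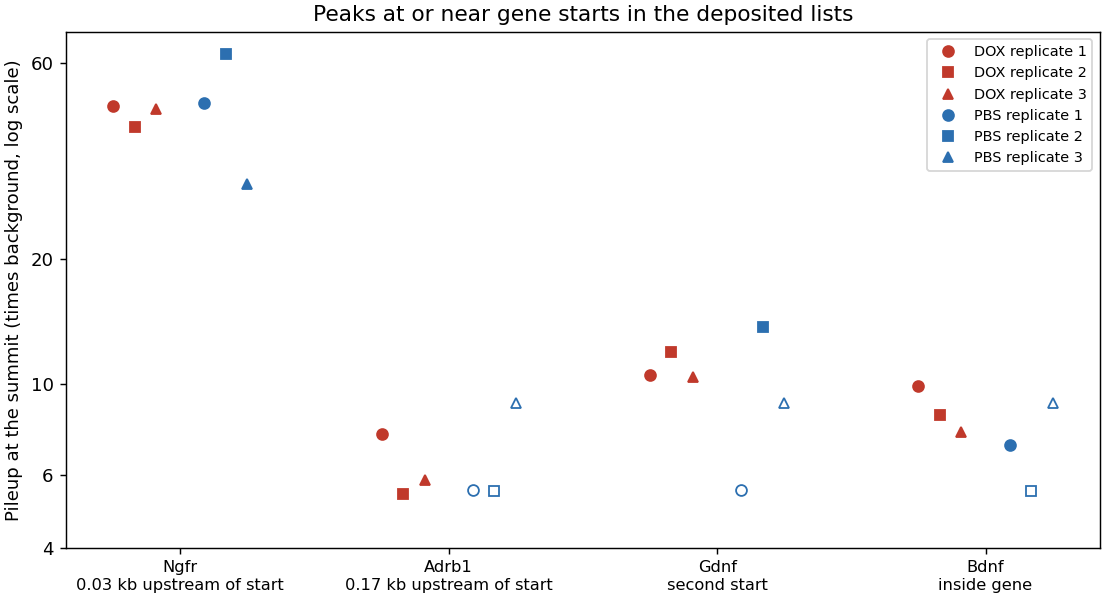
Pileup at the summit, in multiples of each library's background on a log axis, for the peak at the Ngfr start, the weak peak at the Adrb1 start, the peak over the second Gdnf start and the only Bdnf peak, in the deposited lists. Filled symbols are listed peaks of DOX (red, left) and PBS (blue, right) replicates; open symbols stand at the lowest listed pileup of a library without a peak there. Ngfr reached 30.5 to 62.9 times the background, and the other peaks 5.38 to 13.7 times.

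Adrb1, which encodes the beta-1 receptor best known from heart muscle, had its strong open regions far from the gene (chromosome 19, 56722117 to 56725150). Regions 44327 bp, 42344 bp and 21075 bp upstream of the start were listed in all 6 libraries. At the farthest of them (56677298 to 56677974) the summit held 110, 123 and 114 fragments in DOX and 72, 62 and 26 in PBS. Since depth differed, strength was read as the share of peaks of the same list that were stronger, which was 30.7%, 29.7% and 39.8% in DOX and 34.4%, 36.5% and 38.9% in PBS, so that the groups overlapped. Inside the gene a weaker region (56723491 to 56723825) was kept in DOX replicates 2 and 3 and PBS replicates 1 and 3, and was in the deposited lists of all 6.

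At the Adrb1 start itself a peak stood in the deposited lists of all 3 DOX libraries and of no PBS library (56721542 to 56722130, summit 171 bp upstream). It held 13, 9 and 13 fragments in DOX, or 7.56, 5.38 and 5.85 times the background. The lowest peaks listed anywhere by PBS replicates 1, 2 and 3 were 5.51, 5.47 and 8.97 times the background, so DOX replicate 2 lay below all 3 of these limits, and DOX replicates 1 and 3 above those of PBS replicates 1 and 2 only. In deposited lists 1.9% of all regions had this pattern and 0.038% the opposite, with all DOX lists longer than all PBS lists.

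Peaks per gene did not pass the test for Adrb1, with 4, 5 and 5 in DOX and 5, 3 and 4 in PBS (log2 fold change 0.22 ± 0.21, SE; limma, adjusted p = 0.79). The log2 fold change was 0.05 without PBS replicate 2, 0.37 without PBS replicate 1 and 0.55 in the deposited lists. Its peaks covered 1545, 2085 and 1790 bp in DOX and 1461, 1147 and 1043 bp in PBS, with no overlap between the groups (means 1807 ± 270 bp in DOX and 1217 ± 218 bp in PBS, SD, n = 3 each). A two-sided exact permutation test gave p = 0.10, below which 3 against 3 libraries cannot go. Of genes with a peak, 39.2% had a longer covered length in every DOX than in every PBS library, and the median kept peak was 507 to 542 bp wide in DOX and 328 to 478 bp in PBS; the part of depth in this was not tested.

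Adrb3, the beta-3 receptor of fat cells and marrow stroma (chromosome 8, 27225776 to 27230845), had a broad open region inside the gene in every library. That region (27227341 to 27228845) was covered by peaks of 1414, 1420 and 1505 bp in DOX. The strongest peak in it was 959, 1377 and 366 bp wide in PBS, where PBS replicate 3 listed separate narrower peaks. Its summit held 79, 65 and 113 fragments in DOX and 41, 50 and 24 in PBS, with 40%, 48.2% and 40.1% of the list stronger in DOX and 53.5%, 43.0% and 41.5% in PBS. A region 8804 bp beyond the higher-coordinate end (27239437 to 27239995) was the strongest of the gene, with 38.5%, 37.8% and 35.1% of the list stronger in DOX and 41.1%, 37.4% and 49.6% in PBS. The groups overlapped at both.

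The gene had 3 peaks in each DOX library and 3, 3 and 4 in PBS (log2 fold change -0.12 ± 0.12, SE; limma, adjusted p = 0.79). The 4 peaks of PBS replicate 3 include the separate peaks within the broad region. With overlapping peaks counted once, as a region, the log2 fold change was 0.16 (limma, adjusted p = 0.83), so its sign hung on that split. Covered length was 2019, 2092 and 2315 bp in DOX and 1438, 1921 and 1074 bp in PBS (p = 0.10, exact permutation test), a separation to be read against the same 39.2%. In the deposited lists a region 3930 bp beyond the higher-coordinate end (27234601 to 27234892) was listed in all DOX libraries, at 8.72, 14.9 and 8.55 times the background, and in no PBS library. These 2 regions, near Adrb1 and Adrb3, were the only ones with that pattern among 46 regions of the 7 genes in the deposited lists. Of all regions in those lists 1.9% had it.

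Adra1a, the alpha-1A receptor of smooth muscle and neurons (chromosome 14, 66635251 to 66771240), had few peaks over its 135990 bp and surroundings, with 2, 1 and 3 peaks in DOX and 2, 3 and 2 in PBS (log2 fold change -0.25 ± 0.38, SE; limma, adjusted p = 0.966). The log2 fold change was 0.08 without DOX replicate 2 and -0.53 without DOX replicate 3. Only the region inside the gene at 66745528 to 66745914 was kept in all 6 libraries. The list held 46.3%, 60.2% and 63.7% stronger peaks in DOX and 61.4%, 65.3% and 82.8% in PBS, and DOX replicate 3 stood below PBS replicate 1. The difference in normal score, the rank among shared regions put on a normal scale, was 0.45 ± 0.27 (SE; limma, adjusted p = 0.491), and 0.19 without PBS replicate 3. It was the largest positive difference among the regions of the 7 genes. No peak touched the 2.5 kb around either end of Adra1a.

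Bdnf, the ligand of the receptor TrkB, was the one gene of the 7 with no kept peak (chromosome 2, 109674700 to 109727043). The count was 0 in all 6 libraries, in the gene or within 100 kb, as had 27.7% of protein-coding genes. The deposited lists held a single region for it, inside the gene (109678110 to 109678342), with 17, 14 and 17 fragments in DOX and 9 in PBS replicate 1. PBS replicates 2 and 3 did not list it. At 7.65 to 9.88 times the background in DOX and 7.09 in PBS replicate 1, this peak lay below the weakest kept peak of each of those libraries. No test was made, since the gene had too few peaks for the fit.

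Ntf3, the ligand of TrkC, held the most regions listed in all libraries (chromosome 6, 126101412 to 126166772, minus strand). There were 6 such regions, 4 of them inside the gene. The strongest region of all 7 genes lay 23666 bp upstream (126190116 to 126190956), with 336, 357 and 462 fragments at the summit in DOX and 239, 228 and 124 in PBS. Only 5.50%, 6.18% and 6.64% of the list were stronger in DOX and 6.99%, 7.0% and 5.15% in PBS, and the difference in score was 0.02 ± 0.07 (SE; limma, adjusted p = 0.93).

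Inside Ntf3 the far region at 126106196 to 126107472, 59930 bp from the start, ranked higher in every DOX library than in any PBS library. Stronger peaks made up 15%, 22.1% and 22.2% of the list in DOX and 24.2%, 24.8% and 24.4% in PBS. The difference in score was 0.18 ± 0.08 (SE; limma, adjusted p = 0.372), and 0.07 without DOX replicate 1. The region at 126159628 to 126160369 had the largest difference of the set, -0.58 ± 0.34 (SE; limma, adjusted p = 0.48), with 78.5%, 78.7% and 77.0% of the list stronger in DOX and 82.9%, 65.3% and 46.0% in PBS. The value was -0.22 without PBS replicate 3. The start of Ntf3 had no kept peak within 2.5 kb. Peaks numbered 7, 6 and 7 in DOX and 7, 6 and 7 in PBS.

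Gdnf, whose product signals through the receptor Ret and its partner Gfra1 (chromosome 15, 7810048 to 7837580), was open behind the gene and weakly inside it. The region 1087 bp downstream (7838139 to 7839259) spanned peaks of 1027, 1115 and 1121 bp in DOX and 1060, 1068 and 658 bp in PBS. Its summit held 85, 96 and 119 fragments in DOX and 95, 79 and 29 in PBS. The list held 37.8%, 36.2% and 38.6% stronger peaks in DOX and 27.0%, 29.7% and 35.7% in PBS, so that it ranked lower in every DOX library than in every PBS library. The difference in score was -0.24 ± 0.10 (SE; limma, adjusted p = 0.306), and -0.30 without PBS replicate 3.

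The region before the second Gdnf start, whose promoter is printed above, lay at 7812832 to 7813222. It was kept in every library, with 32, 33 and 36 fragments in DOX and 18, 23 and 12 in PBS, and its difference in score was -0.03 ± 0.38 (SE; limma, adjusted p = 0.983). The sign of that difference hung on single libraries, with -0.37 without PBS replicate 1, and 0.14, 0.07 and 0.24 without DOX replicate 3, PBS replicate 2 and PBS replicate 3. Gdnf had 2 peaks in each DOX library and 2, 4 and 2 in PBS (log2 fold change -0.28 ± 0.27, SE; limma, adjusted p = 0.79). The 2 further peaks of PBS replicate 2 lay inside the gene and were close to the limit of its list.

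Ngfr, which lacks a kinase and modulates Trk signalling or signals alone, was the only one of the 5 genes with a RefSeq promoter here whose promoter lay under a kept peak in every library (chromosome 11, 95568818 to 95587698, minus strand). The peak over its start (95587407 to 95587972, summit 30 bp upstream) held 81, 70 and 103 fragments in DOX and 61, 69 and 17 in PBS. That is 47.1, 41.8 and 46.3 times the background in DOX and 48.0, 62.9 and 30.5 times in PBS. The score differed by -0.04 ± 0.15 (SE; limma, adjusted p = 0.936). A companion region 1317 bp into the gene (95586143 to 95586690) was the strongest of the gene, with 35.2%, 40.4% and 38.3% of the list stronger in DOX and 30.3%, 32.9% and 37.8% in PBS.

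Upstream of Ngfr, 2 distal regions were listed throughout. The region at 30259 bp (95617790 to 95618135) had 49.6%, 47.3% and 48.7% of the list stronger in DOX and 53.5%, 54.7% and 56.5% in PBS, with no overlap (score difference 0.18 ± 0.16, SE; limma, adjusted p = 0.657). The region at 33456 bp (95620874 to 95621720) varied most between libraries of the same treatment. It held 35, 35 and 108 fragments in DOX and 31, 106 and 17 in PBS, with DOX replicate 3 and PBS replicate 2 high. Its difference in score was -0.58 ± 0.39 (SE; limma, adjusted p = 0.562), and -0.17 without PBS replicate 2. Ngfr had 7, 6 and 7 peaks in DOX and 7, 7 and 6 in PBS, the most of the set together with Ntf3.

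**Figure D2:**
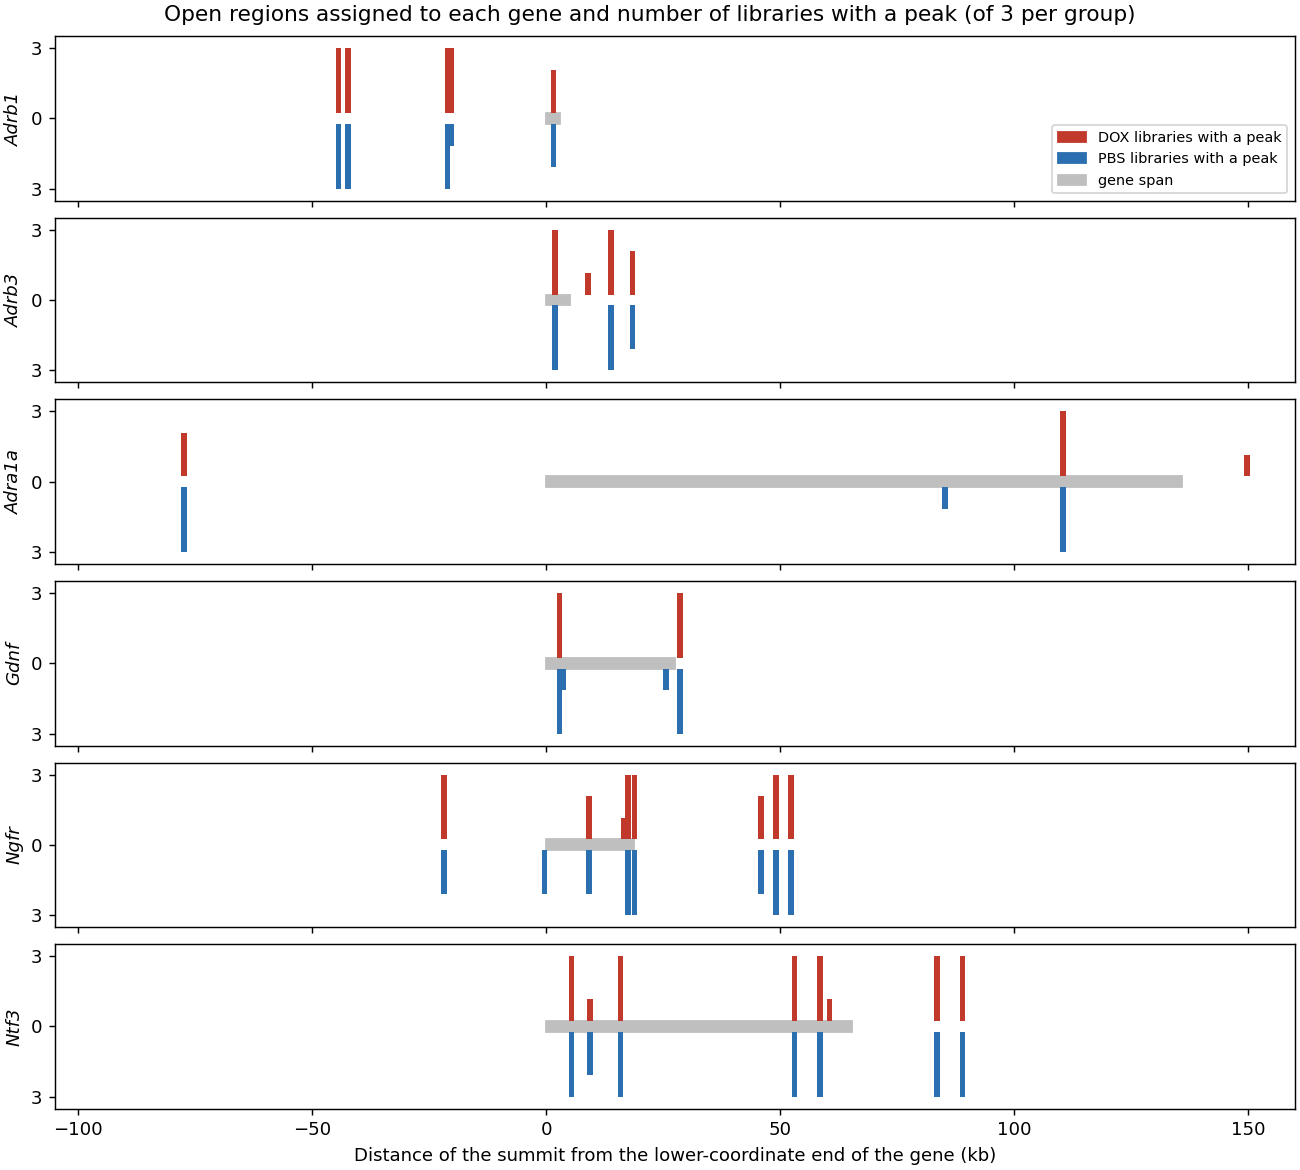
Regions of the kept lists around each gene, by the distance of the summit from the lower-coordinate end of the gene (kb). Grey bars are gene spans, red bars up count DOX libraries with a peak and blue bars down PBS libraries with a peak, of 3 each. Ngfr and Ntf3 start at the right end of their spans. Bdnf, with 0 kept peaks, is not drawn.

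Together the 7 genes held 34 regions in the kept lists. Of these, 18 were listed in all 6 libraries, 9 in 2 to 5 and 7 in a single library, and 16 lay inside a gene. In 12 of the 18 shared regions fewer than 50% of peaks were stronger on average (66.7%, against 63.7% of all 49200 shared regions). In the strongest 10% was 1 of the 18, the upstream region of Ntf3, against 6411 of all 49200.

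**Figure D3:**
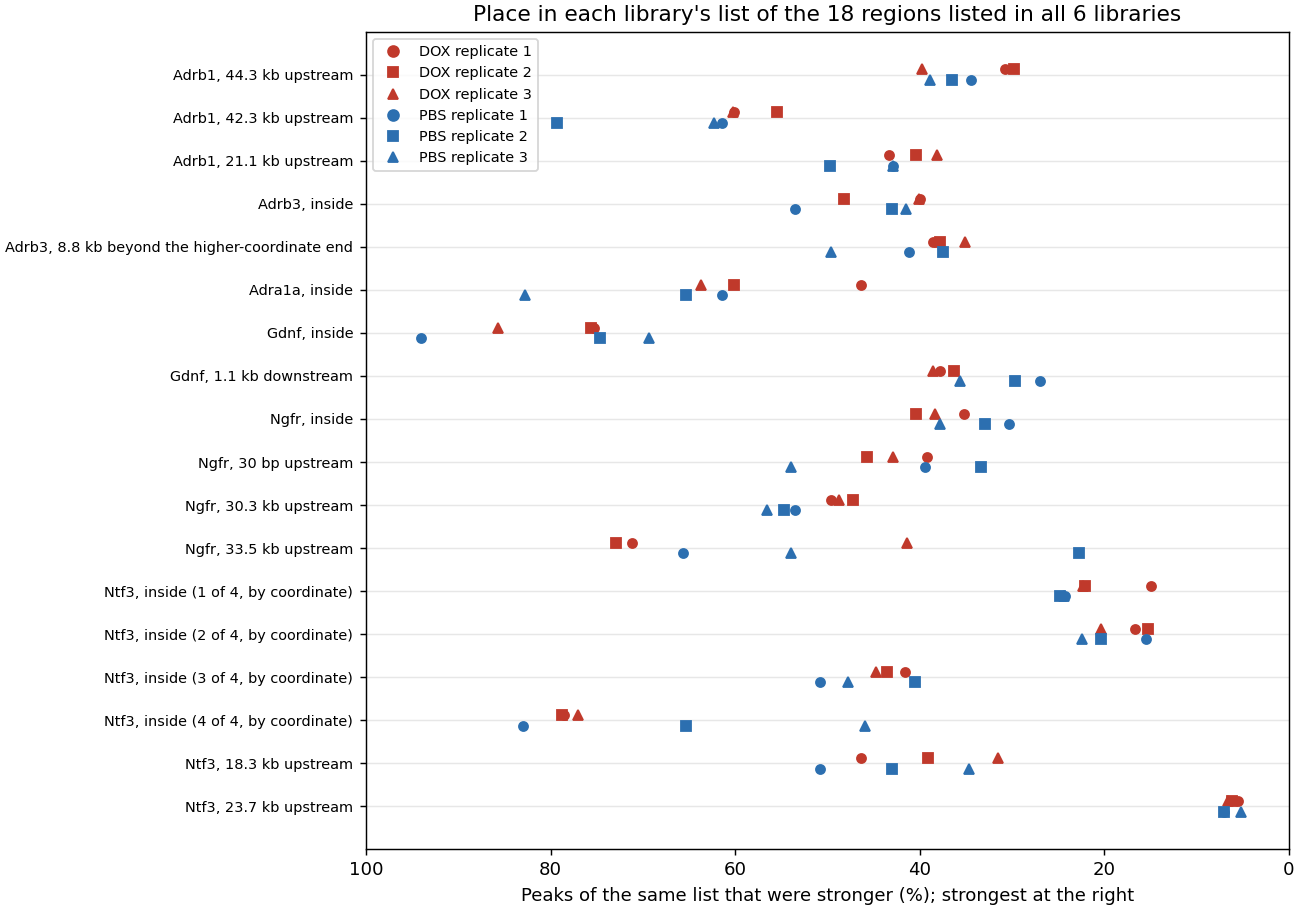
Place of the 18 shared regions in each library's list, as the percentage of kept peaks that were stronger, with the strongest at the right. DOX libraries (red) are drawn above PBS libraries (blue), with a symbol for each replicate. The upstream region of Ntf3 lies between 5.15% and 7.0% in every library, while the region 33456 bp upstream of Ngfr spreads over both groups.

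No region of these genes was kept in all 3 libraries of one treatment and in none of the other. Of all 78387 regions, 0.82% were listed in all DOX and no PBS libraries and 0.292% in all PBS and no DOX libraries, so that 0 of 34 is near the background. The count was 1 of 34 without PBS replicate 1, for the region 20295 bp upstream of Adrb1 (56701687 to 56701944, DOX only), against 1415 of 77141 regions overall. It was 1 of 31 without PBS replicate 2, for a region 313 bp past the end of Ngfr (95568423 to 95568607, PBS only), against 501 of 77201 overall.

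Rank gave no call either. Of the 18 shared regions, 0 passed an adjusted p of 0.05 (limma), and 0% of all shared regions did. At an unadjusted p under 0.05 there were 2 of 18, the downstream Gdnf region and the far Ntf3 region, against 13.1% of all shared regions. The groups did not overlap in 3 of 18 regions (16.7%), against 18.8% overall (9.38% higher and 9.39% lower in DOX). These were the same 2 regions and the region 30259 bp upstream of Ngfr. Differences in score were above 0 in 12 of 18, with a median of 0.08, while 24554 of 49200 were above 0 overall and the median was 0.00.

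**Figure D4:**
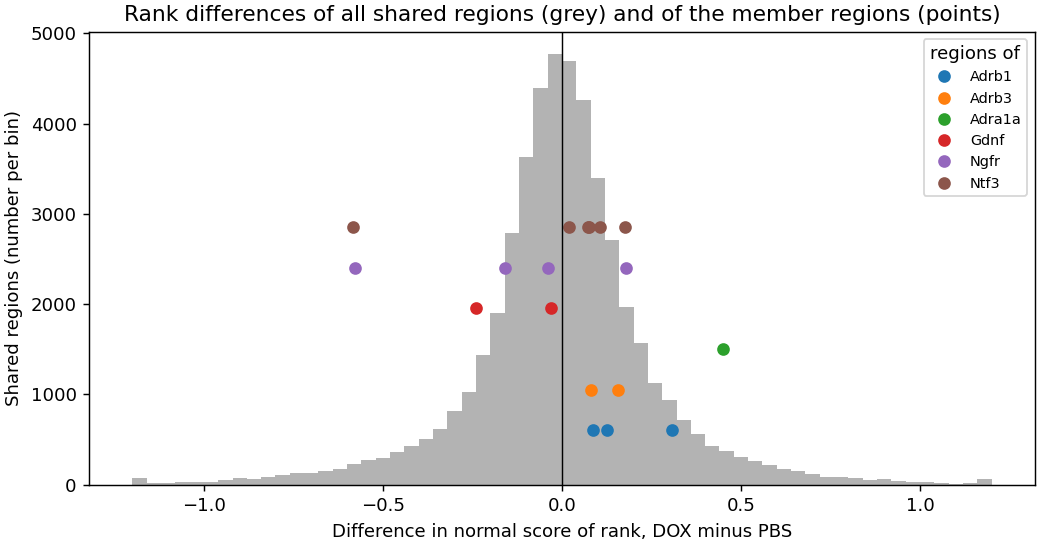
Differences in normal score of rank, DOX minus PBS, for all 49200 shared regions (grey bars, number per bin, with values beyond the axis counted in the outermost bins) and for the 18 regions of the genes (points, a row and colour for each gene, height without meaning). Most points lie in the bulk of the bars; the Ntf3 and Ngfr regions at -0.58 and the Adra1a region at 0.45 lie farthest out.

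Peaks per gene were tested for 6 of the genes, and 0 passed an adjusted p of 0.05 or an unadjusted p of 0.05 (limma). Among all 8784 tested genes 1.18% passed the adjusted test (0.581% higher and 0.603% lower in DOX) and 468 the unadjusted one. The median log2 fold change was -0.06 over the 6 and 0.00 over all. In none of the 7 did the kept numbers separate the groups, as they did in 3.55% of all genes with a peak. In the deposited lists, which were longer in DOX, Adrb1 had 8, 6 and 7 peaks in DOX and 6, 4 and 4 in PBS, and Gdnf 3, 6 and 5 in DOX and 3, 4 and 2 in PBS. There too the groups overlapped or met at a shared value in all 7 genes, while 6.76% of all genes had groups that did not overlap (6.27% higher in DOX). Log2 fold changes from the deposited lists were 0.24 for Adrb3 and 0.56 for Gdnf, opposite in sign to those from the numbers of kept peaks.

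**Figure D5:**
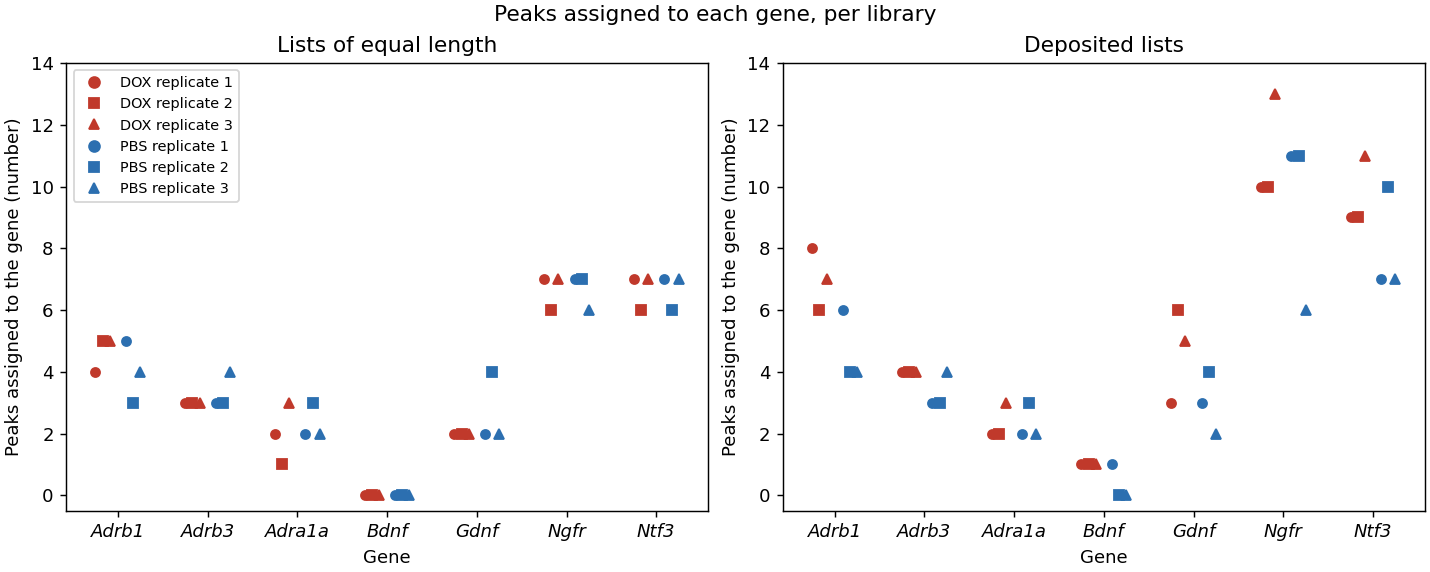
Number of peaks assigned to each gene in each library, with DOX libraries (red) left of PBS libraries (blue) and a symbol for each replicate. The left panel shows lists of equal length, with 0 to 7 peaks a gene and overlapping groups, and the right panel the deposited lists, with up to 13 peaks.

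The variation of Ngfr between libraries was also compared with that of other genes. Among 8778 genes the log2 covered length followed that of Ngfr most closely over the 6 libraries in Nek10, Foxl1 and Dusp28 (Pearson r = 0.995, 0.994 and 0.991). These values share libraries and their depth, and are given as a description of 6 points.

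The pathway around the 7 genes was read from 7 lists with 115 genes. The adrenergic receptor genes Adra1b, Adra1d, Adra2a, Adra2b and Adra2c each had a peak within 1 kb of an end in all 6 libraries, whereas Adrb1, Adrb3 and Adra1a had none there in any. Of genes for making, moving and breaking down catecholamines, 5 of 11 were open at an end in every library. Over all 21627 genes, 12681 to 12982 had an open end, depending on the library. Pnmt, the enzyme that makes adrenaline, had no kept peak in any library, as had 27.7% of protein-coding genes. It was the only such gene of the 11.

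Of the 85 pathway genes tested for peak number, 1 passed (1.18% passed over all genes) and rose, Sema3d, a secreted guidance factor of the semaphorin family, with 7 peaks in each DOX and 6 in each PBS library (log2 fold change 0.21; limma, adjusted p = 1.20e-08). That p rests on the absence of spread within groups, and with the spread raised to that of similar genes the call was lost. Of the 578 shared regions of these lists, 0 passed the adjusted test on rank (limma) and 80 had an unadjusted p under 0.05 (13.1% overall). Of 975 regions, 5 were listed in all DOX and no PBS libraries (0.82% of regions overall) and 4 in all PBS and no DOX libraries (0.292% overall).

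The 5 DOX regions lay inside Gnaq, the alpha subunit of Gq, Ntrk2, the receptor of Bdnf, Pde4d, a phosphodiesterase of cyclic AMP, and Ret, and downstream of Sema3d. Of the 4 PBS regions 2 lay inside Grk2, the kinase that desensitises beta receptors (chromosome 19, 4300331 to 4300682 and 4303261 to 4303635), and the others inside the guidance genes Slit2 and Unc5b. The first Grk2 region held 17, 15 and 9 fragments in PBS, or 13.4, 13.7 and 16.1 times the background. Grk2 had 2, 3 and 3 peaks in DOX and 4, 7 and 6 in PBS (log2 fold change -0.95 ± 0.26, SE; limma, adjusted p = 0.633), with no overlap between the groups. Ret had 11 peaks in each DOX library and 9, 9 and 8 in PBS (log2 fold change 0.33 ± 0.05, SE; limma, adjusted p = 0.198), also with no overlap. Of all genes with a peak, 3.55% had groups that did not overlap in peak number. Other genes of the lists were separated too, among them Sema3d and Pde4d, higher in DOX, and Unc5b, lower in DOX. All of the regions listed after 1 treatment only were weak. The 5 DOX regions stood at 12.6 to 18.5 times the background. The weakest kept peaks of the DOX libraries were close to this, at 11.6 to 12.6 times.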

How the data were processed

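Open chromatin was measured by ATAC-seq in 3 DOX and 3 PBS libraries, grouped by their titles. The authors deposited a peak list per library, with build mm10 and MACS2 2.2.7.1 and Bowtie2 2.4.5 among the tools, per the submitters' processing notes, which give no caller settings or Tn5 shift. Every deposited peak carries a fold enrichment (a ratio to background), a −log10 p and a −log10 q, a score and positions in bp, none scaled between libraries. Pileups and a constant background per library were solved from the deposited fold and −log10 p under a Poisson model, and 100% of pileups with −log10 p under 200 were whole numbers to within 0.05. Depth in reads is unknown; intervals are not given, and pileups carry counting error.

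Peaks on chromosomes 1 to 19 and X were ranked by −log10 p, with ties broken by width, and the strongest 65462 kept. Ties at the limit ran to 2723 peaks. Summits went to the nearest RefSeq gene span (GRCm38.p6) within 100 kb. Peaks of all libraries overlapping by at least 1 bp were merged into regions. Limma 3.58.1, with trend and robust moderation and Benjamini-Hochberg adjustment, was run on log2(peaks + 0.5) where genes averaged 2 peaks or more, and on normal scores of rank over regions listed in all 6 libraries. It was tested on simulated data. Named were all 7 genes, their strongest region, regions past a test or listed in all libraries of 1 treatment only, the 3 shared regions with the largest differences, and pathway genes meeting those rules; other regions, Pnmt and the alpha receptor genes were added after their values were seen. Some genes of the lists are not reported here. Genes, lists and tests were chosen with earlier results of these data known.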

Additional observations from a re-analysis of the deposited data

How the results depend on the processing

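Where they could be fitted, 0 of the genes were called for peak number and 0 of their shared regions for rank. Bdnf was fitted nowhere, lists of 32731 peaks left Ngfr, Ntf3 and part of the regions, and a distance of 50 kb left out Adra1a. Over all genes, 104 calls on peak number became 207 with all genes that had a peak, 38 with the replicate block, 0 with raised spread and 177 to 298 with a library left out. Over all shared regions, 0 calls on rank became 2 with lists of 32731 peaks, 51 with the replicate block and 0 to 94 with a library left out (94 without PBS replicate 1). Deviations of same-numbered libraries had correlations of 0.12, -0.10 and 0.05, within the -0.18 to 0.14 of pairs with unlike numbers. A batch shared by some pairs was not tested. Regions of the 7 genes listed in every DOX and no PBS library (DOX only) numbered 2 of 46 in the deposited lists (Adrb1, Adrb3). They numbered 2 of 43 at a fold enrichment of at least 5 (Bdnf, Adrb3) and 1 of 16 with 32731 peaks (Ngfr). With a library left out they were 0 to 1 of 31 to 34. Those in every PBS and no DOX library (PBS only) also numbered 0 to 1 with a library left out. Over all regions, 643 of 78387 in DOX only became 2151 of 113038, 1781 of 100115 and 299 of 37889 under these 3 lists. With a library left out they were 963 to 1463, of 75574 to 77629 regions. The 229 in PBS only became 43 in the deposited lists, 43 at a fold of at least 5 and 382 to 649 with a library left out. The cause was not tested, though fewer libraries have to hold or lack a peak when 1 is left out. For peak number, Adrb1 kept its sign in 14 of 14 alternatives, Adrb3 in 10 of 14, Adra1a in 10 of 13 and Gdnf in 12 of 14. The downstream Gdnf region stayed below 0 in 12 of 12 (-0.56 to -0.18) and the far Ntf3 region above 0 in 12 of 12 (0.07 to 0.27). These counts include alternatives that cannot change the estimate. They are, for peak number, the replicate block, raised spread and the fit of all genes with a peak. For rank they are the replicate block and ranking by fold enrichment. With a constant background per library, fold enrichment and −log10 p put peaks in the same order, so the score differences had to be the same. In the deposited lists a region without a peak lies below its library's limit, 4.05 to 4.78 times the background in DOX and 5.47 to 8.97 in PBS. In the kept lists it lies at or below 11.6 to 12.6 times in DOX and 8.97 to 12.8 in PBS.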
